A study of Rattus norvegicus with 6 samples.

Results

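Neurofilaments are the main intermediate filaments of large axons, and 5 rat genes of this kind were followed: Nefh, Nefm, Nefl, Ina and Prph. They were taken by symbol from the 14217 genes that the platform annotation names singly for a probe set on these rat arrays. In all, 7 of 31042 probe sets carried 1 of the 5 symbols and no other. Nefh, Nefm and Prph had 1 probe set each, and Nefl and Ina had 2 each. Of the 7, 5 were bright enough to enter the test, 1 for each gene.

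Arrays had been hybridised with RNA of retinal ganglion cells, whose axons make up the optic nerve, from 3 adult male Brown Norway rats. Both eyes had been back-labelled with Fluorogold placed in the superior colliculus, an episcleral vein of 1 eye had been injected with hypertonic saline to keep its pressure high over 10 days, and 2000 ganglion cells per eye were then cut out by laser. The other eye was the control. The groups are the left eyes (OS, n = 3 arrays) and the right eyes (OD, n = 3 arrays) of the same 3 rats. The labels do not say which eye was treated, so each difference is left minus right within a rat, and whether it runs from high to normal pressure is unknown. If the treated side varied between rats, differences would partly cancel.

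As background, Nefl, Nefm and Nefh encode the light, medium and heavy neurofilament subunits. The light subunit forms the core of the filament, and the medium and heavy subunits carry long tails that are phosphorylated in axons and project from it. Ina encodes internexin alpha, which joins the triplet in central neurons, and Prph encodes peripherin, which can join it and is best known from peripheral neurons. In the retina these genes are known above all from ganglion cells, and loss of neurofilament RNA is a known response of those cells to cutting of the optic nerve. Peripherin is a different protein from the photoreceptor protein peripherin-2, which Prph2 encodes.

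In RefSeq's assembly GRCr8, Nefl and Nefm are neighbours on chromosome 15, with 0 protein-coding genes between them. Nefh lies on chromosome 14, Ina on chromosome 1 and Prph on chromosome 7. RefSeq's promoter table held 2 of the 5 genes, Ina and Prph, and only these 2 are shown for that reason. Both gave a lower value in the left eye of each rat with their brightest probe set, and a link to the promoter letters was not tested. The 150 bases before each start are given 5′ to 3′. Matches to TATAAA (the core of the TATA box) and GGGCGG (the GC box) on either strand are in capitals.
Ina (GRCr8, chr1:255837979-255838128, plus strand): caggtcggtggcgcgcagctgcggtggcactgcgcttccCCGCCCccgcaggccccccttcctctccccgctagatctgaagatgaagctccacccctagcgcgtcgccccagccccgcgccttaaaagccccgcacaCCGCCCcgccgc
Prph (GRCr8, chr7:132097139-132097288, plus strand): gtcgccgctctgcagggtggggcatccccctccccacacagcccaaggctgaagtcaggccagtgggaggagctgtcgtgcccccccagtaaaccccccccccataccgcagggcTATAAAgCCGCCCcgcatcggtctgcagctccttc
Ina had 0 matches to TATAAA and 2 to GGGCGG, which began 111 and 12 bases before the start. Prph had 1 match to each, beginning 35 bases before the start for TATAAA and 28 for GGGCGG, and the matches did not overlap. Of all 33469 promoters in the table, 8% held TATAAA and 26% held GGGCGG in the same 150 bases. G and C made up 73.3% of the Ina bases and 68% of the Prph bases, against a median of 52.7% over all promoters. The RefSeq span of Prph begins 401 bases before the start used in the table, so the Prph bases lie within that span. These matches describe letters only and say nothing about a factor.

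Values are scaled intensities, with a trimmed mean (2% off either end) of 500.1 for all 6 arrays. The median intensity ran from 313 to 369 over the 6 arrays. Each array's background limit, the 95th percentile of its 27 unspiked bacterial controls, ran from 261 to 591. Between 34.8% and 58.1% of probe sets lay above it. Differences were taken on log2(intensity + 16), which understates the change of dim probe sets, and tested with limma with rat as a block over 15521 probe sets.

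Nefh and Nefm had lower intensities in the left eyes of all 3 rats, and their left and right eyes did not overlap. Nefh averaged 3.30-fold lower and Nefm 2.65-fold lower in OS. Neither passed the threshold of 0.05 after adjustment over all tested probe sets. Ina and Prph had smaller differences, also lower in OS in 3 of 3 rats, while Nefl went in opposite directions in different rats.

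Nefh (1370815_at), the heavy subunit gene, had intensities of 2613, 1620 and 2309 in OS of rats 1, 2 and 3, against 8146, 6394 and 6879 in OD. The lowest right eye was 2.45 times the highest left eye, so the groups were well apart. All 6 values exceeded their array's background limit, by 2.96 to 31.3 times. Within rats, the right eye was 3.12, 3.95 and 2.98 times as bright as the left, so the 3 animals were close to each other. On the log2 scale OS minus OD was -1.72 ± 0.22 (SD, n = 3 rats), with a 95% interval of -2.58 to -0.87 from the limma fit. The limma p was 0.00041 unadjusted and 0.242 adjusted. An exact two-sided sign-flip permutation test over the 3 rats gave p = 0.25, the smallest that 3 rats allow.

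Nefh was among the more repeatable differences on these arrays. By unadjusted p it ranked 25 of 15521, and 3.56% of tested probe sets had a mean difference as low or lower. The SD of its 3 within-rat differences was as small or smaller in 2.94% of tested probe sets. Among the 3509 probe sets above the background limit on all 6 arrays, 25 had a mean difference as low or lower, Nefh included. RNA content of captured cells and the mix of cells captured cannot be told apart on these arrays, for this gene or the others: fewer ganglion cells among those cut out and less Nefh RNA per ganglion cell would give the same value.

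Nefm (1367845_at), the medium subunit gene, had 680, 1069 and 647 in OS of rats 1, 2 and 3, against 2388, 2068 and 1842 in OD. The groups did not overlap, the lowest right eye being 1.72 times the highest left eye. All 6 values exceeded the background limit, the nearest by 1.58 times. The right eye was 3.51, 1.93 and 2.85 times as bright as the left in rats 1, 2 and 3, so rat 2 had the smallest difference for Nefm and the largest for Nefh. OS minus OD was -1.40 ± 0.43 on the log2 scale (SD, n = 3 rats), with a 95% interval of -2.50 to -0.31. The limma p was 0.0141 unadjusted and 0.59 adjusted, and the exact sign-flip permutation p was 0.25.

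Nefl, the light subunit gene, was the exception among the triplet. Its brighter probe set (1370058_at) had 1525, 1208 and 653 in OS of rats 1, 2 and 3, against 4420, 183 and 3421 in OD. The left eye was lower in rats 1 and 3 and higher in rat 2, so the groups overlapped. OS minus OD was -1.53, 2.62 and -2.36 on the log2 scale in rats 1, 2 and 3, with a mean of -0.42 ± 2.67 (SD, n = 3 rats). The 95% interval ran from -1.89 to 1.04, and the limma adjusted p was 0.921 (exact sign-flip permutation p = 1).

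The right eye of rat 2 set this spread. Its value of 183 was 0.31 times that array's background limit of 591, the only one of the 6 values of this probe set under the limit. The right eyes differed 24.1-fold among themselves for Nefl and the left eyes 2.33-fold. Without rat 2 the log2 difference was -1.94 (limma adjusted p = 0.116), without rat 1 it was 0.13 and without rat 3 it was 0.55. The value in the right eye of rat 2 lay 3.56-fold under the lowest of the other 5. Of 4658 probe sets above the limit on the other 5 arrays, 356 (7.64%, Nefl included) lay at least that far below them and under the limit on the right-eye array of rat 2, against 1.31% to 6.03% for each of the other 5 arrays taken in the same way. These shares depend partly on the limits themselves, which were highest on the right-eye array of rat 2 (591) and lowest on that of rat 1 (261, with 1.31%). Whether the low Nefl value came from the cells or from the array was not tested.

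The second Nefl probe set (1370059_at) was dim and was not tested. It had 286, 170 and 153 in OS of rats 1, 2 and 3, against 508, 25.9 and 26.2 in OD, and exceeded the background limit on the right-eye array of rat 1 alone. All 3 left-eye values were under the limit, so it gives no usable difference. It was low in the right eye of rat 3, where the brighter Nefl probe set had 3421, so the 2 probe sets disagreed there.

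Ina, the internexin gene, was bright on every array. Its brighter probe set (1387226_at) had 3191, 2643 and 1712 in OS of rats 1, 2 and 3, against 3904, 4454 and 4730 in OD. The groups did not overlap, but the lowest right eye was 1.22 times the highest left eye, a narrower gap than for Nefh or Nefm. The right eye was 1.22, 1.69 and 2.76 times as bright as the left, so rat 3 had the largest difference. OS minus OD was -0.83 ± 0.59 on the log2 scale (SD, n = 3 rats), with a 95% interval of -1.73 to 0.07. The limma p was 0.0677 unadjusted and 0.736 adjusted, and the exact sign-flip permutation p was 0.25.

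The other Ina probe set (1371148_s_at) was dim, was not tested, and may detect more than 1 transcript, as its suffix marks. It had 568, 25.4 and 187 in OS of rats 1, 2 and 3, against 77.6, 211 and 79.2 in OD. It exceeded the background limit on the left-eye array of rat 1 alone, and its direction differed between rats, unlike that of the bright Ina probe set.

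Prph (1368028_at), the peripherin gene, had 1304, 1839 and 1290 in OS of rats 1, 2 and 3, against 3435, 2335 and 1345 in OD. The left eye was lower in each rat, but the groups overlapped. The right eye was 2.63 times as bright as the left in rat 1, 1.27 times in rat 2 and 1.04 times in rat 3. OS minus OD was -0.60 ± 0.70 on the log2 scale (SD, n = 3 rats), with a 95% interval of -1.61 to 0.42 and a limma adjusted p of 0.828 (exact sign-flip permutation p = 0.25). Rat 1 carried most of it, and without rat 1 the mean was -0.20. Prph was 3.15 times the background limit or more on every array, so it was not dim.

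**Figure D1:**
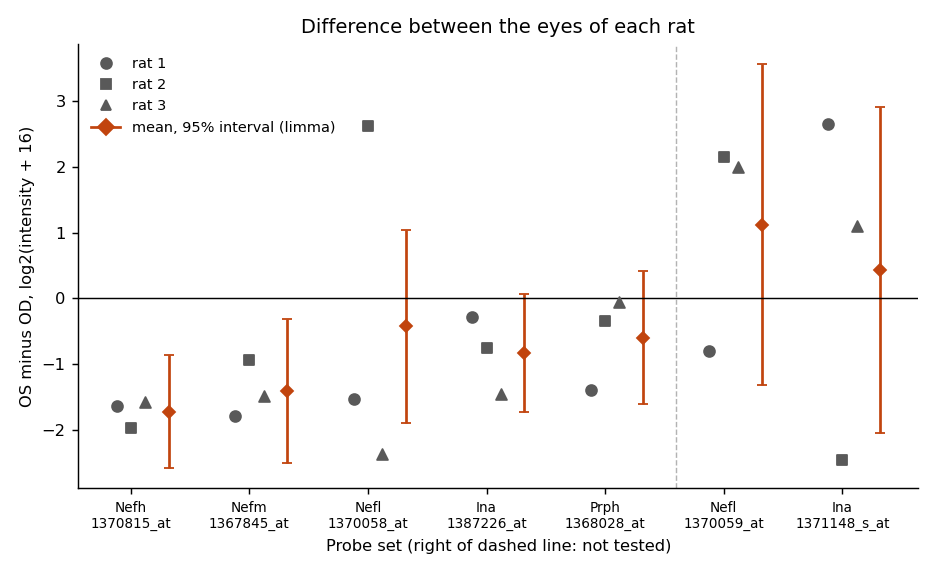
OS minus OD on log2(intensity + 16) for each filament probe set, with 1 grey point for each rat and a red diamond with its 95% interval from limma (for the 2 probe sets right of the dashed line, from the fit without a brightness filter). The intervals of Nefh (-2.58 to -0.87) and Nefm (-2.50 to -0.31) lie below 0, and the Nefl interval (-1.89 to 1.04) spans it.

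Set beside all tested probe sets, the filament genes stood as follows. By limma, 0 of the 5 tested filament probe sets passed at an adjusted p under 0.05, where 0.0129% of all tested probe sets did. At an unadjusted p under 0.05 and lower in OS there were 2 of 5, against 4.31% of all. Lower in OS in 3 of 3 rats were 4 of 5, against 14.0% of all, and 3 of 5 had left eyes that did not overlap with and lay below the right eyes, against 5.08% of all. At least 2-fold lower in every rat was 1 of 5, Nefh, against 1.46% of all. The 5 are bright, and 4 of them exceeded the background limit on all 6 arrays. Among the 3509 probe sets that did so, 18.3% were lower in OS in all 3 rats and 6.50% had left eyes below the right eyes without overlap. The median log2 difference was -0.83 over the 5 filament probe sets and -0.01 over all tested.

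By rat, the median of the 5 filament differences was -1.53 in rat 1, -0.75 in rat 2 and -1.49 in rat 3. The median over all tested probe sets in the same rats was -0.03, 0.01 and 0.05, so the arrays as a whole were centred near 0. In rat 1 the difference of Nefh was as low or lower in 13.2% of tested probe sets, in rat 2 in 9.15% and in rat 3 in 13.5%. Nefh therefore lay in the lower part of each rat's differences without being extreme in any of them. For Nefm these shares were 11.5%, 22.8% and 14.5%, and for Ina 40.8%, 27.2% and 14.9%.

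**Figure D2:**
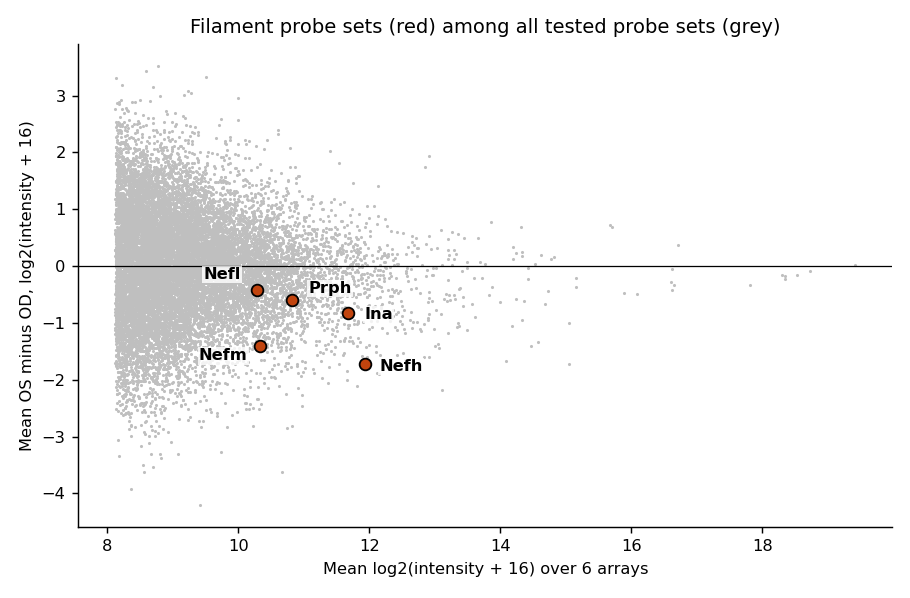
Mean OS minus OD on log2(intensity + 16) against mean log2 intensity over the 6 arrays, with 15521 tested probe sets in grey and the 5 tested filament probe sets in red. Nefh, at -1.72, lies near the lower edge of the cloud at its brightness, and Nefl, at -0.42, lies inside it.

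The filament genes differed between the eyes to unequal degrees. OS minus OD was more negative for Nefh than for Nefm by 0.32 ± 0.63 on the log2 scale (SD, n = 3 rats), which is within the spread between rats. It was more negative for Nefh than for Ina by 0.89 ± 0.68 and than for Prph by 1.13 ± 0.77, in 3 of 3 rats each. For Nefm it was more negative than for Ina in 3 of 3 rats too, by 0.57 ± 0.81, and than for Prph by 0.81 ± 0.54. Rat 1 carried most of the difference from Ina, as Nefm minus Ina was -1.50, -0.19 and -0.03 in rats 1, 2 and 3. In rat 3 Nefh minus Ina was also small, at -0.11. These are unequal differences within the same arrays, with no test beyond the smallest p of 0.25 that 3 rats allow.

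Levels also differed between rats. Averaged over both eyes of a rat, mean log2 values spanned 0.52 for Nefh, 0.44 for Nefm and 0.31 for Ina, each less than the mean difference between the eyes. For Prph the rats spanned 0.68 against an eye difference of 0.60, and for Nefl 2.40 against 0.42. The Nefl span rests on the right eye of rat 2, whose left eye lay between the other left eyes.

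The genes most like each filament gene were found by the root mean square difference between log2 profiles, each centred on its mean over the 6 arrays, which come from 3 rats and are not independent. For Nefh they were Nap1l1, a histone chaperone gene (0.18), Tmcc1 (0.20) and the kinesin motor gene Kif1c (0.25), against a median of 1.22 over all candidates. Kif1c was above the background limit on all 6 arrays and averaged -1.47 (log2, OS minus OD). The Nap1l1 and Tmcc1 probe sets exceeded the limit on 2 arrays each, and the brighter Nap1l1 probe set averaged -0.42. For Nefm they were Lrpap1, a chaperone gene of lipoprotein receptors (0.12), the protein kinase gene Pkn2 (0.21) and Lmo7 (0.23). The Lmo7 probe set exceeded the limit on 2 arrays, and the brightest Lmo7 probe set averaged 0.25. For Ina they were Ndufb11, a respiratory complex I subunit gene (0.12), Srp19, of the signal recognition particle (0.13), and Cdc42ep4 (0.15), each above the limit on all 6 arrays.

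Nefl and Prph had other neighbours. Closest to Nefl were Tmem127 (0.23), the deubiquitinase gene Usp35 (0.39) and the proteasome assembly gene Psmg1 (0.45), which shared its low value in the right eye of rat 2. Tmem127 had 60.2 there, Usp35 103 and Psmg1 37.5, each the lowest of its 6 values. The Tmem127 and Psmg1 probe sets exceeded the limit on 3 arrays each, and a brighter Tmem127 probe set, above it on all 6, averaged 0.11. Closest to Prph were Tgm4 (0.13), which exceeded the limit on 1 array, Gnl3 (0.19) and the adducin gene Add1 (0.24), whose brighter probe set averaged -0.05. These nearest genes were picked as the closest of all candidates, so a larger distance between filament genes has no meaning beside them. Nefh lay 0.46 from Nefm, 0.58 from Ina, 0.75 from Prph and 1.56 from Nefl, against a median of 1.22 over its candidates. Nefm, Ina and Prph lay 0.45 to 0.56 from each other, against medians of 1.13, 1.02 and 1.03. Nefl lay 1.48 to 1.56 from the other filament genes, against a median of 1.70. With many candidates and few arrays, near profiles of this kind are a description.

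The other intermediate filament genes, a list of 33 with keratins, lamins, vimentin and others, had 28 on the array and 16 tested, and 0 passed by limma (unadjusted p under 0.05 in 1 lower and 0 higher). Their median log2 difference was 0.38, with 6 of 16 lower and 10 of 16 higher on average in OS, where 50.5% of all tested probe sets were lower. Higher in 3 of 3 rats were 6 of 16, against 14.5% of all. At an unadjusted limma p under 0.05, 4.31% of all were lower and 2.60% higher. Des, the muscle filament desmin, had 197, 556 and 81.3 in OS of rats 1, 2 and 3, against 609, 1542 and 596 in OD. It was lower in each left eye, by -1.88 ± 0.67 on the log2 scale (SD, n = 3 rats, limma adjusted p = 0.697), but exceeded the background limit on 1 of 3 left-eye arrays. Nestin (Nes), a filament of progenitor and glial cells, averaged 1.41 ± 1.26 (limma adjusted p = 0.796). The keratin gene Krt5 averaged 1.59 ± 1.30 and the lamin gene Lmnb2 1.03 ± 0.94. Each of these was higher in OS in 3 of 3 rats. Nes exceeded the limit on 3 arrays, and its difference in rat 1 was 0.06. Krt5 and Lmnb2 differed most in rat 2, at 3.07 and 2.10, where their right-eye values of 86 and 153 were under the limit.

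The glial filament genes Gfap and Vim were read beside the neuronal ones. Gfap, the astrocyte filament, had 3757, 1558 and 3777 in OS of rats 1, 2 and 3, against 2627, 1787 and 774 in OD. It was higher in OS in rats 1 and 3 and lower in rat 2, for a mean of 0.86 ± 1.27 on the log2 scale (SD, n = 3 rats, limma adjusted p = 0.781). Vim, which encodes vimentin of glia, had 746, 72.7 and 5185 in OS, against 636, 534 and 761 in OD, with a mean of 0.11 ± 2.69 (limma adjusted p = 0.987). Neither gene had the same direction in all 3 rats, which was also so for Nefl. Both Vim values of rat 2 were under the background limit of their array (547 for OS and 591 for OD).

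**Figure D3:**
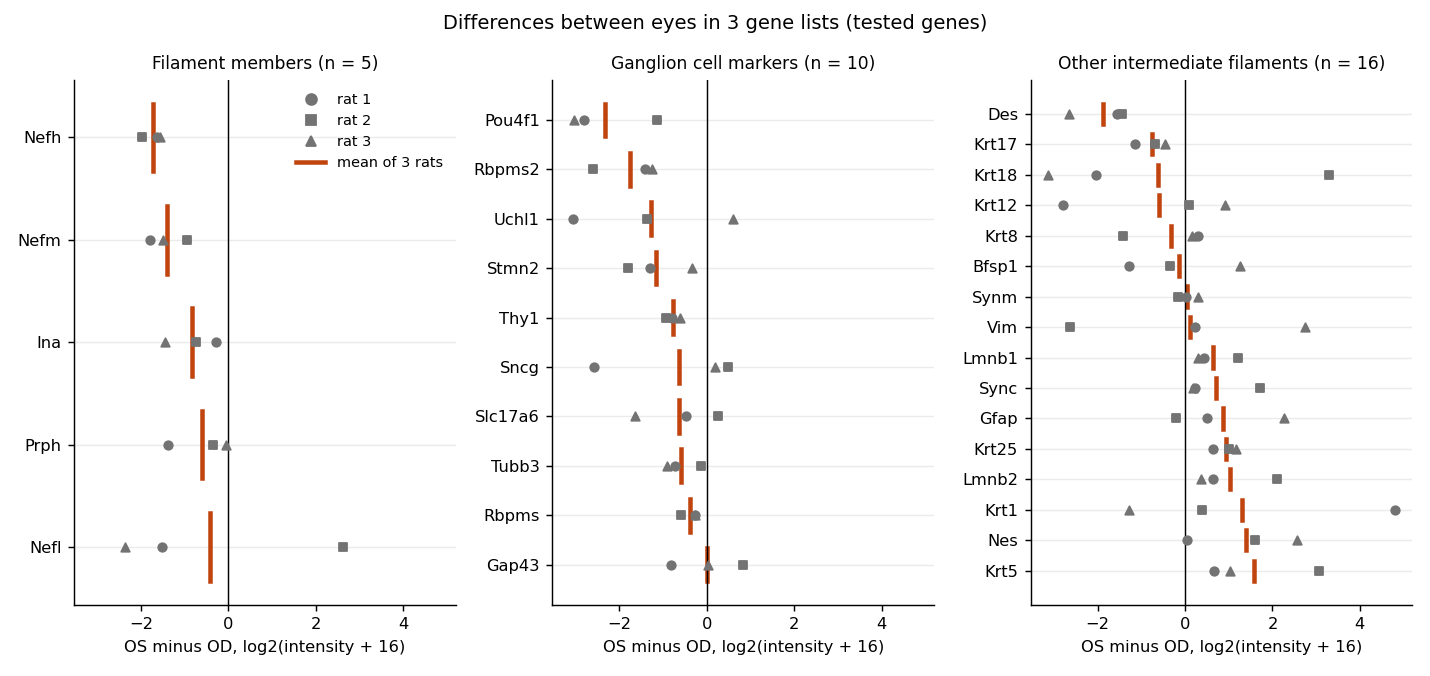
OS minus OD on log2(intensity + 16) for the tested genes of 3 lists, with a grey point for each rat and a red bar at the mean of 3 rats. Of the 5 filament genes 4 have all 3 points below 0, as have 6 of 10 ganglion cell markers and 2 of 16 other intermediate filament genes.

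Ganglion cell markers that are not filaments had 14 of 16 genes on the array and 10 tested, and 0 passed by limma (2 lower and 0 higher at an unadjusted p under 0.05). The mean was lower in OS for 9 of 10 and lower in each rat for 6 of 10, and the median was -0.71. Over all tested probe sets, 50.5% had a lower mean, 14.0% were lower in each rat and 4.31% were lower at an unadjusted p under 0.05. The surface glycoprotein gene Thy1 had 1104, 731 and 1213 in OS of rats 1, 2 and 3, against 1920, 1412 and 1861 in OD. Its difference was -0.78 ± 0.16 (log2, SD, n = 3 rats, limma adjusted p = 0.799), and its dimmer probe set averaged -0.13. The RNA-binding protein gene Rbpms averaged -0.38 ± 0.18 and Rbpms2 -1.75 ± 0.73, close to Nefh. Dimmer Rbpms probe sets disagreed, at -1.67 and 2.47. The tubulin gene Tubb3 averaged -0.59 ± 0.40, with a dimmer probe set at 1.94. Pou4f1, a transcription factor gene, averaged -2.33 ± 1.04 and Stmn2 -1.15 ± 0.74, each with 1 of 3 left-eye values above the limit. Sncg averaged -0.64 ± 1.70 but was lower in OS in rat 1 alone, at -2.59, 0.49 and 0.18 in rats 1, 2 and 3.

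Nefh differed more between the eyes than Thy1 and Rbpms did on the same arrays, but not more than Rbpms2 and Pou4f1. Relative to Thy1 the Nefh difference was -0.84, -1.04 and -0.96 on the log2 scale in rats 1, 2 and 3, and relative to Rbpms it was -1.36, -1.38 and -1.30. Relative to Rbpms2 it averaged 0.03 ± 0.52 and relative to Pou4f1 0.60 ± 1.26 (SD, n = 3 rats). On average OS minus OD was lower for Nefh than for 8 of the 10 tested markers, and in all 3 rats than for 5. For Nefm these counts were 8 and 4, for Ina 6 and 1, for Prph 3 and 1 and for Nefl 2 and 0.

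Genes listed as markers of other retinal cells were detected in part. Above the background limit on all 6 arrays were 4 of 10 amacrine, 4 of 13 Mueller glia and astrocyte, 3 of 17 photoreceptor, 1 of 12 microglia, 1 of 9 vessel, 1 of 7 bipolar, 0 of 9 pigment epithelium and 0 of 5 horizontal cell markers, against 6 of 14 ganglion cell markers. The amacrine markers Tfap2a, Chat and Slc18a3 and the Mueller glia marker Kcnj10 were above it on 0 arrays. Summed over the 10 amacrine cell markers on the array, intensity ran from 12776 to 24361 in OS and from 27442 to 72590 in OD, lower in OS in 3 of 3 rats. The 4 brightest carried this sum: of the 72590 in OD of rat 3, Gad1 had 25386, Calb2 24082, Pax6 11883 and Tfap2b 9976. The other amacrine markers, Gad2, Slc6a9 and Th among them, did not have 1 direction in all 3 rats. Whether the signal of the 4 brightest came from amacrine cells or from the ganglion cells themselves was not tested. Their sum is therefore no measure of amacrine cells alone. Of the 6 amacrine markers tested, 4 were lower in OS in all 3 rats, against 14.0% of all tested probe sets, and 4 had an unadjusted limma p under 0.05 and were lower, against 4.31% of all, while 0 passed after adjustment. Among them Gad1, which encodes a GABA-synthesising enzyme, averaged -1.77 ± 0.80 and the calretinin gene Calb2 -1.41 ± 0.66 (log2, SD, n = 3 rats, limma adjusted p of 0.242 and 0.372), as low as Nefh and Nefm. The ganglion cell marker sums ran from 9883 to 18074 in OS and from 17096 to 21845 in OD, with 1 of 14 genes under the limit on all arrays. Pigment epithelium marker sums (9 genes, 0 under the limit on all arrays) ran from 2528 to 6260 in OS and from 7401 to 37972 in OD. Of the 37972 in OD of rat 3, Tyrp1 had 10420. Of the 7 tested, 6 had a lower mean in OS and 2 were lower in all 3 rats, against 14.0% of all. Their median log2 difference was -2.67, 0.06 and -0.65 in rats 1, 2 and 3.

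Bipolar sums over 7 genes were higher in OS in 3 of 3 rats, at 3537, 2814 and 2878 in OS of rats 1, 2 and 3, against 3192, 1560 and 2439 in OD. The sums of the other cell types did not have 1 direction in all 3 rats. Photoreceptor sums over 17 genes ran from 14279 to 33137 in OS and from 14907 to 51106 in OD, and Mueller glia and astrocyte sums over 13 genes from 10175 to 30957 in OS and from 11002 to 29755 in OD. Horizontal cells also hold neurofilaments; the sums of their 5 markers ran from 3058 to 4355 in OS and from 3188 to 6060 in OD, with 0 of the 5 under the limit on all arrays. Microglia sums over 12 genes ran from 5167 to 14470 in OS and from 3662 to 6482 in OD, and vessel sums over 9 genes from 2970 to 12936 in OS and from 5826 to 7521 in OD. The part of these cells in the filament differences was not tested. Of the 2 controls read at both ends, 1 differed the same way in each rat: the 3′ to 5′ ratio of the beta-actin control in OS exceeded that of OD in each of 3 rats, with a log2 difference of 1.32 ± 0.52 and 2 of 6 values of the 5′ end above the limit. The 3′ to 5′ ratio of the Gapdh control did not have 1 direction: OS minus OD was -0.46 ± 1.86 on the log2 scale and higher in OS in 2 of 3 rats, with 4 of 6 values of its 5′ end above the limit. The part of RNA quality in the filament differences was not tested.

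Genes that handle neurofilaments gave mixed values. Kinases, phosphatases and turnover genes had 22 of 28 on the array and 16 tested, 0 passed by limma (1 lower and 0 higher at an unadjusted p under 0.05), and 8 were lower and 8 higher on average in OS, with a median of -0.05. Among all tested probe sets, 4.31% were lower and 2.60% higher at that p, and 50.5% had a lower mean. In all 3 rats 1 of the 16 was lower and 5 were higher, against 14.0% and 14.5% of all. The stress kinase gene Mapk9 averaged 1.85 ± 0.21 (log2, SD, n = 3 rats, limma adjusted p = 0.763), but its right-eye values were all under the limit. The kinase gene Gsk3b, above the limit on 1 array, averaged 1.18 ± 0.92. Camk2a averaged 1.17 ± 1.34, but another tested Camk2a probe set averaged -1.28. Ppp2ca, the catalytic subunit of protein phosphatase 2A, averaged -1.90 ± 2.07, at -0.92, -4.28 and -0.50 in rats 1, 2 and 3. Its left-eye value in rat 2 was 21, under the limit, and its dimmer probe set averaged 0.16.

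Filament linkers and transport motors had 20 of 20 genes tested, of which 0 passed by limma (5 lower and 1 higher at an unadjusted p under 0.05). Over all tested probe sets, 4.31% were lower and 2.60% higher at that p. On average 15 were lower and 5 higher in OS, with a median of -0.46, and 8 were lower in all 3 rats, against 14.0% of all. The spectrin genes Sptan1, at -1.24 ± 0.54, and Sptbn1, at -1.24 ± 0.86, and the ankyrin gene Ank2, at -1.08 ± 1.04, build the membrane skeleton. Dimmer probe sets of Sptbn1 averaged -2.05 to 0.44 and those of Ank2 -0.64 to 0.21, so they disagreed in direction. The kinesin light chain gene Klc1 averaged -1.05 ± 0.40 (log2, SD, n = 3 rats, limma adjusted p = 0.604), while its 3 dimmer probe sets averaged 0.59 to 2.23. Regulators of neurofilament RNA had 9 of 11 genes on the array and tested, 0 passed (1 lower and 0 higher at an unadjusted p under 0.05), and the median was -0.66. Among them the 14-3-3 gene Ywhaq averaged -1.38 ± 0.51 (limma adjusted p = 0.382).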

How the data were processed

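Arrays of 6 eyes (3 rats, OS and OD) were 1-colour Affymetrix GeneChips, 1 per eye. Per the labels' protocols, RNA was isolated with a PicoPure kit, amplified with a RiboAmp HS kit and labelled with biotin. The submitters' processing notes name GCOS, with no version or settings. Deposited values are intensity values per probe set on a linear scale, with no detection calls, and the equal trimmed means show scaling by array.

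The table held 31099 probe sets, of which 57 controls stayed out of the tests. Among the other 31042, 20826 had 1 symbol in GEO's platform annotation, 436 had several and 9780 had none. RefSeq's gene table held the identifiers of 20758, with 0 symbols updated. The 5 filament genes were matched by single symbol.

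An offset of 16 was added before log2. Probe sets at or above the median mean log2 value (15521) were fitted with limma 3.58.1 in R 4.3.3 (rat as a fixed block, intensity trend, two-sided, Benjamini-Hochberg over all tested probe sets, threshold 0.05). With 2 residual against 19.4 prior degrees of freedom, p-values and intervals depend largely on the pooled variance. Both eyes of a rat come from 1 animal per the titles. Deviations from the eye means correlated between eyes of a rat at 0.11, 0.12 and 0.33 in rats 1, 2 and 3 (over probe sets). OS of rat 1 with OD of rat 2 gave 0.10 and OS of rat 2 with OD of rat 1 gave 0.088, about as high as within those rats, so the pairing rests on the titles. The 3 rats limit the precision.

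All filament probe sets are named. From each of 13 gene lists up to 4 genes qualified, tested, at least 2-fold apart with the same direction in 3 rats and smallest p; Thy1, Pou4f1, Rbpms, Sncg, Tubb3, Vim and Gfap were always named, and 3 nearest genes per filament gene. Each listed gene is given by its brightest probe set. The members and lists were chosen with earlier results of these data known. Alternatives varied the offset, normalization, filter, block, variance model, array weights and rats.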

Additional observations from a re-analysis of the deposited data

How the results depend on the processing

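The count of filament probe sets past the threshold was 0 under each of the 15 alternatives tried (limma), of 7 tested without a filter and of 5 tested otherwise, and 1 to 3 had an unadjusted p under 0.05. Nefh, Nefm, Ina and Prph stayed lower in OS on average under each alternative: Nefh from -1.80 to -1.60 (adjusted p 0.105 to 0.971), Nefm from -1.64 to -1.21 (0.42 to 0.971), Ina from -1.10 to -0.52 (0.653 to 0.971) and Prph from -0.86 to -0.20 (0.749 to 0.991). Nefl kept its sign under 13 and changed it under 2, to 0.13 without rat 1 and 0.55 without rat 3; without rat 2 it was -1.94. Over all tested probe sets 2 passed. Requiring signal above the limit on 3 of 6 arrays also gave 2. None passed, a count of 0, under 7 alternatives: offset 1, quantile normalization, the filter at the 75th percentile of brightness, no replicate block, rat as a random replicate block, no intensity trend, and scaling to the hybridization spike-ins, which was chosen after seeing the data (546 to 1023 at an unadjusted p under 0.05 by limma). The robust prior gave 1, weighting of arrays 7, offset 64 gave 9 and dropping the filter 9. Leaving out rats 1, 2 or 3 gave 26, 59 or 18 (from 18 to 59). The cause was not tested. The replicate block changed no filament call; without it Nefh had an adjusted p of 0.953 and an unadjusted p of 0.00357. Values near the background limit have little meaning, and the treated eye is not given by the labels.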
